A study of Homo sapiens with 6 samples.

Results

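The question here was what shRNA2 against LincIN changed in breast cancer cells relative to the empty vector. LincIN is a long intergenic noncoding RNA gene next to the integrin gene ITGB1. The cells, MDA-MB-231-Luc-D3H1, derive from the triple-negative human breast cancer line MDA-MB-231 and express luciferase. Stable lines carried the empty GFP vector, shRNA1 or shRNA2, so that all groups share the parental line, its luciferase gene and a stably expressed vector. The members of the comparison were 4 of the 6 arrays of the series, 2 with shRNA2 and 2 with the empty vector, chosen by their labels. The 2 shRNA1 arrays served to mark shared genes and to estimate the spread. Both arrays of a group came from separate RNA collections, but the sources do not say whether each stable line was derived again for the second, so p-values measure the spread between these arrays, which may be technical. Each Human Gene 2.0 ST array was made from 250 ng of total RNA.

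A short hairpin RNA is cut by Dicer into a small RNA that guides Argonaute proteins to a matching transcript, so it enters the same pathway as the microRNAs of the cell. Hairpins against 1 target that differ in sequence share that target, while partial matches to other transcripts are particular to each. With each hairpin in a stable line of its own, effects of losing the target, of the hairpin and of the line selected with it cannot be told apart.

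A probe set is a group of array probes for 1 gene or gene segment. The value table held 53617 probe sets, of which 16098, for 14884 genes, had exactly 1 gene symbol and were tested. Values are RMA signals on the log2 scale, where a difference of 1 is a doubling, and they carry no detection call. LincIN, ITGB1 and CDKN1A had no named probe set, so the knockdown was not checked here and the groups rest on their labels. Signs are shRNA2 minus vector by the GEO labels. The direction opposes that of the study's own list of changed genes, in which SLAMF7, for example, stands as raised and VCAM1 as lowered.

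Array medians lay between 6.12 and 6.30, and with 2 arrays a group their number sets the precision. The shRNA2 replicates differed with an SD of 0.231 over probe sets, against 0.397 for vector and 0.395 for shRNA1. Vector and shRNA1 replicates differed in related ways, and 161 probe sets differed by over 1 in the same direction in both, 130 of them higher in replicate 2. Placed between 0 (the replicate 1 arrays) and 1 (the replicate 2 arrays) on these 161 probe sets, the shRNA2 arrays lay at a median of 0.636 and 0.819. Of the 161, 0 were called with shRNA2 in limma, or 12 under the replicate block described next.

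At an adjusted p under 0.05 in limma, 414 probe sets for 406 genes were called with shRNA2, which is 2.57% of those tested. Of these, 172 were higher (1.07%) and 242 lower (1.5%), with log2 changes between 0.72 and 4.72 in size and a median size of 1.15. In all 414, the shRNA2 arrays and the vector arrays did not overlap, as in 52.2% of all named probe sets. At an unadjusted p under 0.001, 144 were higher and 209 lower. Over all named probe sets the median change was -0.04. With the replicate number added to the fit as a block, all 414 stayed called and the calls numbered 1180 (7.33%), 507 higher (3.15%) and 673 lower (4.18%). Values under this replicate block are given below where they change a call or a count by over 1.5 times. The number of calls rested on single arrays. It fell to 7 without shRNA2 replicate 1, to 6 without replicate 2, and to 139 or 150 without vector replicate 1 or 2, where the lone array is assumed to vary like the other groups. Calls in each of the 6 fits that left out 1 array were kept by 6 genes, SLAMF7, OLR1, MYCT1, TMEM156, DSC2 and VCAM1. Every other call named below was lost in at least 1 of these fits, although each kept its direction.

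Of the 414 calls, 178 (1.11% of the probe sets tested) were also called with shRNA1 in the same direction, 44 higher and 134 lower. The comparisons share the vector arrays, so this count is not independent of them. A further 62 probe sets (0.385%), for 58 genes, were called with shRNA2, not called with shRNA1, and differed between the hairpins at an adjusted p under 0.10. These are referred to below as set apart from shRNA1, 34 of them higher and 28 lower. In all 62, both shRNA2 arrays lay outside the 4 other arrays. The selection favours such a separation, so it adds no support for any of them. The remaining 174 calls, 94 higher and 80 lower, did not pass shRNA1's test, but their difference from shRNA1 did not pass 0.10 either. Under the replicate block, 331 probe sets were set apart (2.06%), 61 of the 62 among them, and 336 were shared (2.09%). The set apart calls numbered 0 without shRNA1 replicate 1, without shRNA2 replicate 1 or without shRNA2 replicate 2, 17 without shRNA1 replicate 2, and 18 or 23 without vector replicate 1 or 2.

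MicroRNA genes made up 20 of the 62 probe sets set apart from shRNA1, or 32.3%, against 7.68% of all named probe sets and 2.25% of the shared calls. Under the replicate block they were 76 of 331, or 23%. The 20 stood for 18 genes, 13 lower and 5 higher. Against vector, microRNA genes were called about as often as other genes. Of their 1236 probe sets 31 were called, and in a list by gene name, with 1264 probe sets, 2.61% against 2.57% of all. Under the block that list had 8.47% called against 7.33% of all. Its median change was -0.09 with shRNA2 and 0.10 with shRNA1, which bears on the contrast of the hairpins and was not tested. MicroRNAs are cut from hairpin precursors by Drosha and Dicer, and the seed, bases 2 to 8 of the mature strand, sets most of their pairing with targets. These probe sets lie on the precursor, so the signal can come from the primary transcript or the precursor as well as the mature strand. The vector means of the 20 ran from 4.52 to 8.65 while the median over all named probe sets was 7.11. Of the 28 microRNA genes called in either direction, 24 had a mature sequence in the RefSeq table (GRCh38.p14). The sequences below are those of the 14q32 genes, of the pairs of called genes that share a seed, and of 3 further genes discussed here, with the seed in capitals and written 5′ to 3′.
hsa-miR-539-5p: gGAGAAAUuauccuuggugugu
hsa-miR-539-3p: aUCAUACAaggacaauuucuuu
hsa-miR-376a-2-5p: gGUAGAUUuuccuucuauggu
hsa-miR-376a-3p: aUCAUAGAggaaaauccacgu
hsa-miR-412-5p: uGGUCGACcaguuggaaaguaau
hsa-miR-412-3p: aCUUCACCugguccacuagccgu
hsa-miR-98-5p: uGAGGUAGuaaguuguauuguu
hsa-miR-4500: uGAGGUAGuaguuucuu
hsa-miR-1301-3p: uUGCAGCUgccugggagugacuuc
hsa-miR-5047: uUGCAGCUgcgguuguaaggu
hsa-miR-550a-5p: aGUGCCUGagggaguaagagccc
hsa-miR-100-5p: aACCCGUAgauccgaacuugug
hsa-miR-27b-3p: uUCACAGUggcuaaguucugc

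MIR539 had the clearest difference between the hairpins. Its signal was 7.71 and 7.66 on the vector arrays, 7.78 and 7.96 with shRNA1, and 5.64 and 5.29 with shRNA2. Only the shRNA2 arrays were low, and no array of another group came near them. The log2 change against vector was -2.22 (standard error 0.17, adjusted p = 0.00351 in limma), and against shRNA1 it was -2.41 (adjusted p = 0.0324), the only probe set past 0.05 in that contrast, where the replicate block gave 370. MIR539 belongs to the imprinted DLK1-DIO3 region at 14q32, whose noncoding RNAs are transcribed from the maternal chromosome in long precursors, and its mature strands lie at chr14:101047329-101047350 and chr14:101047369-101047390 on the plus strand.

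MIR376A2, in the same region, read 4.70 and 5.39 in vector cells, 5.13 and 5.49 with shRNA1, and 3.35 and 2.93 with shRNA2, a change of -1.91 (adjusted p = 0.0187 in limma). MIR412 went the other way, from 6.58 and 6.36 to 7.50 and 7.58 (1.07, adjusted p = 0.0197 in limma), with shRNA1 at 6.64 and 6.56. The groups did not overlap for either gene. These 3 were the only calls among 59 probe sets for 55 genes of the 14q32 region (5.08% against 2.57% of all), whose median change was -0.05. None of 9 microRNA genes close to them, picked as neighbours after the values were seen and among them MIR376B, MIR654, MIR889 and MIR409, was called, with changes between -0.71 and 0.53 and adjusted p from 0.127 up in limma. MIR376A1, whose 3' mature strand is the same miR-376a-3p, read 2.40 and 2.45 in vector cells and 2.60 and 2.57 with shRNA2 on 1 of its 2 probe sets. The lowest signals of the arrays were between 1.79 and 2.11, so MIR376A1 lay near the floor, where a fall could hardly show. MIR889, at 2.67 and 2.80 in vector cells, and some other neighbours had the same limit.

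Shared seeds joined 2 pairs of the called genes. MIR98, of the let-7 family, fell from 8.05 and 8.08 to 7.33 and 7.28 (log2 change -0.76, adjusted p = 0.0449 in limma), with shRNA1 at 8.39 and 8.32. MIR4500 has the same seed and also fell, from 5.27 and 4.88 to 3.83 and 3.60, but it was low with shRNA1 too (3.59 and 3.31). The let-7 gene MIRLET7A2 did not fall, at 8.33 and 7.12 in vector cells and 8.29 and 8.22 with shRNA2 (0.53, adjusted p = 0.59 in limma). MIRLET7F2, the neighbour of MIR98, was at 0.23 (adjusted p = 0.583 in limma), but near the floor at 2.38 and 2.62 in vector cells. The other shared seed belonged to MIR5047 (-1.75) and MIR1301 (1.09), which changed in opposite directions. Both were set apart from shRNA1 only under the block (adjusted p against shRNA1 of 0.0207 and 0.0918). The let-7 seed is known for repressing HMGA2 and RAS genes, and HMGA2 itself was called lower with shRNA2, at 9.83 and 9.60 in vector cells against 8.76 and 8.92 (-0.88, adjusted p = 0.0459).

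MIR550A1 fell from 5.91 and 5.98 to 4.03 and 4.25 on 1 of its 2 probe sets (-1.81, adjusted p = 0.00512 in limma), while shRNA1 stayed at 5.90 and 5.59. Its second probe set had a change of 0.81 (adjusted p = 0.148), so the probe sets of this gene disagree. MIR550A2 and MIR550A3 are further loci of the same microRNA, so their signals may mix. The MIR550A2 probe sets had changes of -0.95 and -0.04 and that of MIR550A3 -0.91, with no call, though under the replicate block the first of MIR550A2 and that of MIR550A3 were called lower (adjusted p of 0.0329 and 0.046). MIR4684 (-1.36), MIR552 (-1.35), MIR516B2 (-1.27), MIR373 (-1.39), MIR9-1 (-1.30), MIR3678 (-0.96), MIR378I (-0.82) and MIR3137 (-0.82) fell as well. Of these MIR378I was not set apart under the block, which called it with shRNA1 (adjusted p = 0.0453). Related genes did not all fall. MIR9-3, a further locus of miR-9, was at 0.60 (adjusted p = 0.146 in limma). In the miR-378 family MIR378D2 was called higher, while MIR378A was at 0.02 and MIR378D1 at -0.73, both without a call in limma. MIR373 belongs to a cluster of embryonic stem cells at 19q13, and its neighbours there had uncalled changes of -0.34 to -0.15.

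Among microRNA genes that rose, MIR891A went from 8.38 and 8.92 to 9.91 and 10.17 (1.39, adjusted p = 0.0285 in limma). MIR100 went from 4.95 and 5.22 to 6.14 and 6.57 (1.27), while its host transcript MIR100HG read 7.22 and 7.18 against 7.35 and 7.37 (adjusted p = 0.617 in limma). MIR27B, a regulator of lipid genes, rose from 7.13 and 7.17 to 8.43 and 8.30 (1.22), and since shRNA1 lay between at 7.64 and 7.90 it was not set apart, but it was under the replicate block (adjusted p against shRNA1 of 0.0948). Its cluster partners MIR23B and MIR24-1 had changes of -0.06 each and were not called, though MIR24-1 lay near the floor at 2.99 and 2.90 in vector cells. MIR3118-4 and MIR3137 each count as 2 of the 62, since each has 2 probe sets with the same values on every array.

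**Figure D1:**
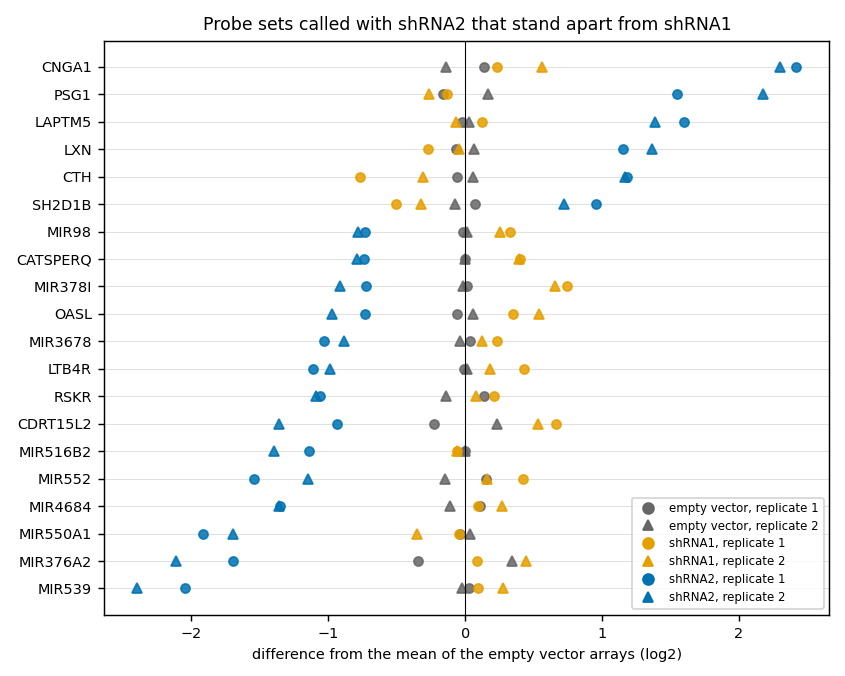
The 20 probe sets set apart from shRNA1 with the smallest p in the contrast of the hairpins, each array as its log2 difference from the mean of the vector arrays (circles replicate 1, triangles replicate 2). As the selection favours, the shRNA2 points lie on 1 side and the vector and shRNA1 points near 0 or on the other side. Changes run from -2.22 for MIR539 to 2.36 for CNGA1.

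Vault RNAs are short RNA polymerase III transcripts, some of them part of the vault particle, and VTRNA2-1 (also called nc886) binds the double-stranded RNA kinase PKR. All 4 annotated vault RNA genes had higher signals on both shRNA2 arrays than on either vector array, as had 21.6% of all named probe sets. Of the 4, 3 were called higher, against 1.07% of all probe sets, and the replicate block called all 4. VTRNA2-1 read 7.78 and 7.06 in vector cells, 9.21 and 8.18 with shRNA1, and 10.04 and 9.72 with shRNA2. Its change was 2.46 (standard error 0.37, adjusted p = 0.0213 in limma), and the shRNA1 arrays lay between the other groups. The replicate block also called it with shRNA1 (adjusted p = 0.00954). VTRNA1-1 read 8.71 and 7.62 in vector cells, 8.06 and 7.99 with shRNA1 and 10.09 and 9.82 with shRNA2 (1.79, adjusted p = 0.0425), and was the vault gene set apart from shRNA1. VTRNA1-2 rose from 5.64 and 5.50 to 7.37 and 7.24 (1.73), and under the block it was set apart as well (adjusted p against shRNA1 of 0.0391). VTRNA1-3 had a change of 1.05 (adjusted p = 0.103, or 0.0472 under the block).

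Small Cajal body RNAs guide the modification of spliceosomal RNAs. Of 23 measured, 2 were called, SCARNA4 and SCARNA18 (8.7% against 2.57% of all), and the median change was 0.84. The replicate block called 7 (30.4% against 7.33%), all higher, and set SCARNA4 apart (adjusted p against shRNA1 of 0.0192). SCARNA4 read 10.10 and 9.77 in vector cells, 11.03 and 9.95 with shRNA1, and 12.17 and 11.85 with shRNA2 (2.08, adjusted p = 0.0301 in limma). For SCARNA18 the values were 6.88 and 6.87 against 7.70 and 7.73 (0.84, adjusted p = 0.0392). This group also differed between replicates, since 21 of the 23 were higher in vector replicate 2 than in replicate 1. The median difference of the shRNA2 mean was 1.61 from vector replicate 1 but 0.27 from replicate 2, whereas for the vault RNAs it was 1.48 and 2.07. SCARNA22, for example, read 8.70 and 12.20 in vector cells and 11.70 and 11.67 with shRNA2. The part of this replicate difference in the scaRNA changes was not tested.

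**Figure D2:**
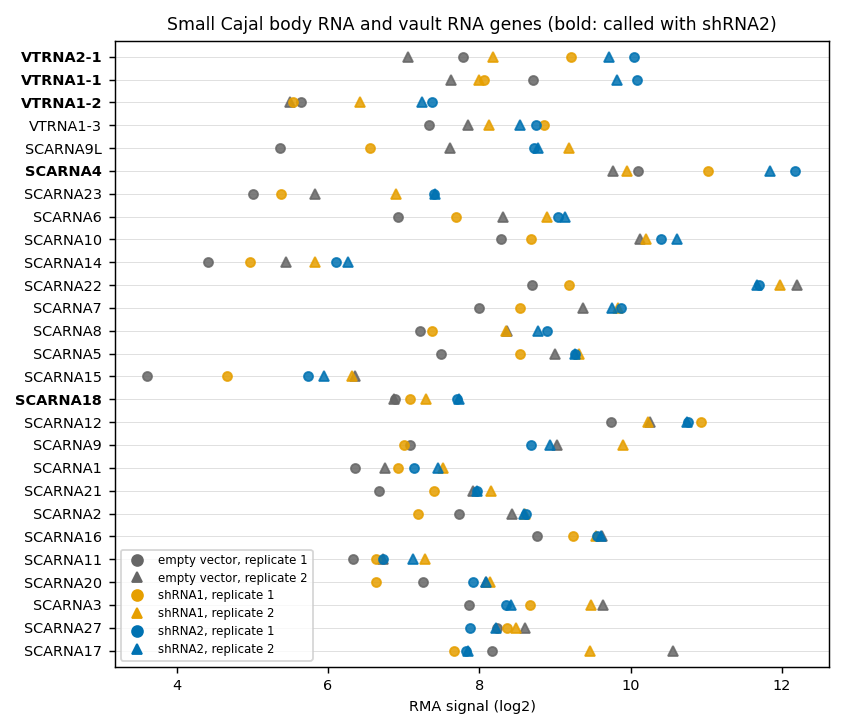
RMA signal (log2) of the 23 small Cajal body RNA and 4 vault RNA genes on each array, with called genes in bold. The shRNA2 arrays of the vault RNAs lie above both vector arrays, while most scaRNAs have vector replicate 1 far to the left of replicate 2.

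ATF4 is the transcription factor of the response to amino acid shortage, and it drives enzymes that make asparagine, serine and cysteine. Of 24 measured genes of this response, 5 were called higher and 0 lower (20.8% called against 2.57% of all). Their median change was 0.17 against -0.04 for all probe sets. ASNS, asparagine synthetase, read 7.86 and 8.52 in vector cells, 8.49 and 8.78 with shRNA1, and 10.18 and 10.28 with shRNA2. The shRNA2 arrays stood clear of all others, and the change was 2.04 (standard error 0.24, adjusted p = 0.00861 in limma), or 1.60 against shRNA1 (adjusted p = 0.0701). CTH, which makes cysteine from cystathionine, read 8.49 and 8.61 in vector cells, 7.78 and 8.24 with shRNA1 and 9.73 and 9.72 with shRNA2 (1.18, adjusted p = 0.0269), so that shRNA1 lay on the other side of the vector. ASNS and CTH were the members set apart from shRNA1. Under the replicate block 6 were set apart, the other 4 being PHGDH, PSAT1, PSPH and DDIT4, with adjusted p against shRNA1 of 0.0309, 0.0394, 0.0714 and 0.0207.

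The other called members were all 3 enzymes of serine synthesis from glycolysis. PHGDH, the entry enzyme, rose from 8.17 and 7.99 to 9.80 and 9.64 (1.64, adjusted p = 0.0122 in limma). PSAT1, the aminotransferase, rose from 11.28 and 11.66 to 12.49 and 12.56 (1.05, adjusted p = 0.041), and PSPH, the phosphatase, from 9.29 and 9.55 to 10.21 and 10.31 (0.84, adjusted p = 0.0471). Changes with shRNA1 were 0.71, 0.23 and 0.22 and not called. Other ATF4 targets were not called. TRIB3 was at -0.78 (adjusted p = 0.121, or 0.0317 under the block), DDIT3 at -0.21, ATF3 at -0.14 and SHMT2 at -0.23, and ATF4 itself read 10.48 and 10.28 against 10.58 and 10.60. DDIT4 was at 0.98 (adjusted p = 0.0692, or 0.0166 under the block). None of the 20 probe sets of cytosolic aminoacyl-tRNA synthetases, which ATF4 also drives, was called in limma, a count of 0 with 4 at an unadjusted p under 0.05, and their median change was 0.00. The replicate block called 1, YARS1 (0.62, adjusted p = 0.0444). ASS1, which uses aspartate to make argininosuccinate, rose from 7.66 and 7.99 to a mean of 8.88 (1.06, adjusted p = 0.031).

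Amino acid response genes can carry a composite C/EBP-ATF element, here searched as TGATGNAAN on both strands from 250 bases before to 50 after each start. It was found in 1 of the 2 listed ASNS promoters and in none of those listed for PHGDH, PSAT1 and CTH, and 3.61% of all 35116 promoters of the table held it. The ASNS match is shown because ASNS changed most in the group, with 36 bases on either side, the match in capitals, and its first letter 68 bases before the start (RefSeq, GRCh38.p14, chr7:97872432-97872512, minus strand).
ASNS promoter: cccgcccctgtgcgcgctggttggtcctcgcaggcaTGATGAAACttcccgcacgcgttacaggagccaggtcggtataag

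Further genes that rose with shRNA2, picked after their values were seen, are given next. FPR1, a receptor for formyl peptides of bacteria and mitochondria, read 5.47 and 5.98 in vector cells, 5.66 and 6.55 with shRNA1 and 7.90 and 7.98 with shRNA2 (2.21, adjusted p = 0.0167 in limma). Its paralog FPR2 rose from 4.12 and 4.49 to 5.41 and 5.22 (1.01, adjusted p = 0.0378), but its difference from shRNA1 passed 0.10 only under the replicate block (adjusted p = 0.0394). The third paralog FPR3 was at 0.10 (adjusted p = 0.896). LAPTM5, a lysosomal membrane protein of blood cells, was bright in all groups, at 10.54 and 10.59 in vector cells, 10.69 and 10.50 with shRNA1 and 12.16 and 11.95 with shRNA2 (1.49, adjusted p = 0.00666). CST7, the leukocyte cysteine protease inhibitor cystatin F, rose from 9.19 and 9.49 to 10.91 and 10.80 (1.51), and CRTAM, an adhesion receptor of activated T cells, from 4.53 and 4.87 to 6.46 and 6.14 (1.60). SH2D1B, an adaptor that couples SLAM family receptors to signalling, rose from 5.79 and 5.64 to 6.67 and 6.44 (0.84, adjusted p = 0.0492).

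LTB4R, the receptor for leukotriene B4, fell from 8.21 and 8.23 to 7.11 and 7.23 (-1.05, adjusted p = 0.0213 in limma), with shRNA1 at 8.65 and 8.40. Blood cell markers were read beside these genes. Of 10 hematopoietic probe sets, 0 were called in limma and 1 had an unadjusted p under 0.05, their mean signal was 6.38 and 6.47 on the 2 vector arrays and 6.52 on both shRNA2 arrays, and their changes ran from -0.32 for CD53 to 0.90 for PPBP. PPBP, a platelet chemokine, read 4.06 and 4.21 in vector cells and 4.70 and 5.38 with shRNA2 (adjusted p = 0.136, or 0.0224 and called under the replicate block), while CD4, CD14 and SPI1 were at 0.09, 0.29 and -0.20. In a population of cells, fewer cells of a kind and less RNA per cell cannot be told apart.

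Of the immune-type surface receptors measured, 41 probe sets, 3 were higher and 4 lower, or 3 and 7 under the replicate block. That was 17.1% called against 2.57% of all, or 24.4% against 7.33% under the block. The 4 lower, SLAMF7, OLR1, TLR4 and MERTK, were also lower with shRNA1, while of the 3 higher FPR1 was set apart and FPR2 and TLR5 were called with shRNA2 and not with shRNA1. TLR4, the lipopolysaccharide receptor, fell from 9.52 and 9.29 to 7.30 and 7.38 (-2.07, adjusted p = 0.00351 in limma). TLR5, the flagellin receptor, rose from 6.67 and 6.62 to 7.49 and 7.32 (0.76, adjusted p = 0.0492).

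CNGA1, a subunit of the cyclic nucleotide-gated channel of rod photoreceptors, rose from 5.15 and 4.87 to 7.43 and 7.31, with shRNA1 at 5.24 and 5.57. The change was 2.36 (standard error 0.18, adjusted p = 0.00351 in limma), while the related CNGA3 and CNGB1 were at 0.02 and -0.10. It was the only call among 13 ion channel probe sets (7.69% against 2.57% of all). The replicate block added CLIC3 (1.29, adjusted p = 0.042), which made 15.4% against 7.33%. PSG1, a pregnancy-specific glycoprotein of the placenta, rose from 3.40 and 3.73 to 5.11 and 5.74 (1.86, adjusted p = 0.0122). None of 9 further PSG genes, which are close in sequence, was called (changes of -0.63 to 0.84), while the replicate block called PSG5 and PSG6 higher (adjusted p of 0.0442 and 0.0322). ANGPT1, a ligand of the endothelial receptor TIE2, rose from a mean of 6.01 to 7.95 and 7.54 (1.74, adjusted p = 0.00596), and ANGPT2 was at -0.33.

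LINC01088, a long noncoding RNA gene on chromosome 4, rose on 2 of its 5 probe sets, from 4.09 and 4.64 to 7.20 and 6.95 on the higher of them (2.71, adjusted p = 0.0163 in limma), and the other 3 were between 0.03 and 0.41. IRF2BP2, a corepressor of the interferon regulatory factor IRF2, rose from 8.93 and 8.66 to 10.18 and 9.99 (1.29, adjusted p = 0.0126), with its relatives IRF2BP1 and IRF2BPL at -0.32 and 0.07. LXN, a carboxypeptidase inhibitor, rose by 1.26, SUSD3 by 1.89, RGCC, a regulator of the cell cycle, by 1.04, and MKX, a homeobox gene of tendon, by 1.52. SORBS2, an adaptor of the actin cytoskeleton, rose by 1.36, HPSE, the enzyme that cleaves heparan sulfate, by 0.82, ETFDH, of mitochondrial electron transfer, by 1.02, and COX7B2, a testis form of a cytochrome c oxidase subunit, by 1.87. Among genes set apart that fell were OASL (-0.85), CATSPERQ (-0.76), RSKR (-1.07), TIMM10B (-1.17), ELOF1 (-0.91), WDR62 (-0.83) and GMPPB (-0.77). Of RASA4, which has near-identical copies on chromosome 7, 4 of 9 probe sets were called higher and only 1 of the 4 was set apart, so its place is uncertain.

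Hairpin RNAs can set off the interferon response through sensors of double-stranded RNA, and the group was examined for that reason. Of 38 interferon-stimulated genes and sensors, 1 rose and 1 fell (5.26% called against 2.57% of all), both set apart from shRNA1. The median change was -0.08. Under the replicate block 1 rose and 5 fell (15.8% against 7.33% of all), and 4 were set apart. The 4 falls it added were IFIT2, IFIT3, RIGI and ISG20 (-0.87), with adjusted p of 0.0492, 0.0237, 0.0159 and 0.0364. XAF1, an interferon-induced gene that binds the apoptosis inhibitor XIAP, rose from 8.81 and 8.82 to 9.60 and 9.63 (0.80, adjusted p = 0.0393 in limma). OASL, a member of the oligoadenylate synthetase family, fell from 9.13 and 9.25 to 8.46 and 8.22 (-0.85, adjusted p = 0.0476), with shRNA1 above the vector at 9.54 and 9.73. IFIT1, IFIT2 and IFIT3 had changes of -1.10, -0.92 and -1.01 (adjusted p of 0.199, 0.152 and 0.0718), RIGI was at -0.90 (adjusted p = 0.101), and IFIH1 and EIF2AK2, which encode MDA5 and PKR, were at -0.07 and 0.18. STING1, the adaptor of cytosolic DNA sensing, fell from 8.74 and 8.93 to 7.52 and 7.30 (-1.42, adjusted p = 0.00756), and AIM2, an inflammasome sensor of DNA, rose from 6.84 and 6.77 to 8.16 and 8.07 (1.31, adjusted p = 0.0205). With shRNA1 both of these were called only under the block (adjusted p of 0.0293 and 0.0221).

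Of 8 genes for small RNA processing and double-stranded RNA binding, 1 was called (12.5% against 2.57% of all). STRBP, which binds double-stranded RNA, rose from 7.86 and 8.15 to 8.82 and 8.83 (0.83, adjusted p = 0.0487 in limma), and shRNA1 lay between at 8.40 and 8.47. DGCR8, XPO5 and TARBP2, which act in the processing and export of microRNA precursors, were at -0.24, -0.46 and -0.20 without a call. None of 10 probe sets of the 10p11 neighbours of LincIN was called in limma (0 calls, 2 at an unadjusted p under 0.05). NRP1, the neuropilin receptor of that region, read 10.66 and 10.62 in vector cells, 11.60 and 11.37 with shRNA1 and 11.36 and 11.31 with shRNA2 (0.70, adjusted p = 0.0673, or 0.0304 and the 1 call of this list under the replicate block).

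**Figure D3:**
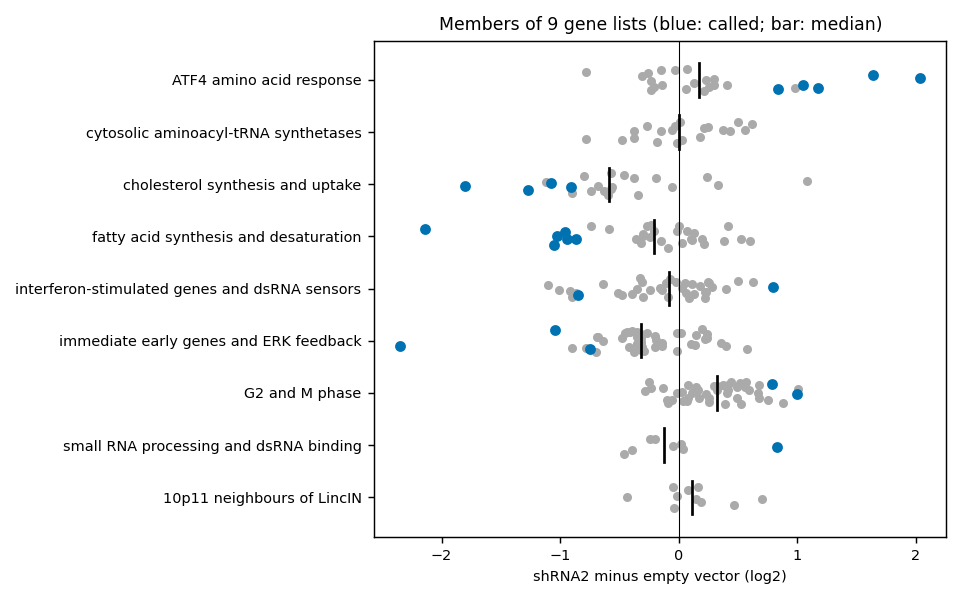
Log2 change with shRNA2 against vector of each measured probe set in 9 gene lists, with called probe sets in blue and the median of each list as a bar. Amino acid response genes have 5 blue points to the right and sterol and fatty acid genes 4 and 6 to the left.

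The largest falls were all shared with shRNA1. Of the 15 lowest log2 changes, 15 were also called with shRNA1, while of the 15 highest 8 were shared, 5 were set apart and 2 were neither. DSC2, a desmosomal cadherin, read 7.88 and 7.86 in vector cells, 5.16 and 5.29 with shRNA1 and 5.07 and 5.31 with shRNA2 (-2.68, adjusted p = 0.00177 in limma). CXCR4, the receptor for the chemokine CXCL12, fell from 9.85 and 10.39 to 7.49 and 7.53 (-2.61, adjusted p = 0.00351). The vector arrays stood above all others for both genes. KRTAP2-3, a keratin-associated protein gene, fell from 9.88 and 9.49 to 6.98 and 6.88 (-2.76), and its near neighbour in sequence KRTAP2-2 rose by 1.45, set apart from shRNA1. MMP8, a collagenase of neutrophils, fell from 8.65 and 7.70 to 5.49 and 5.52 (-2.67, adjusted p = 0.018).

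**Figure D4:**
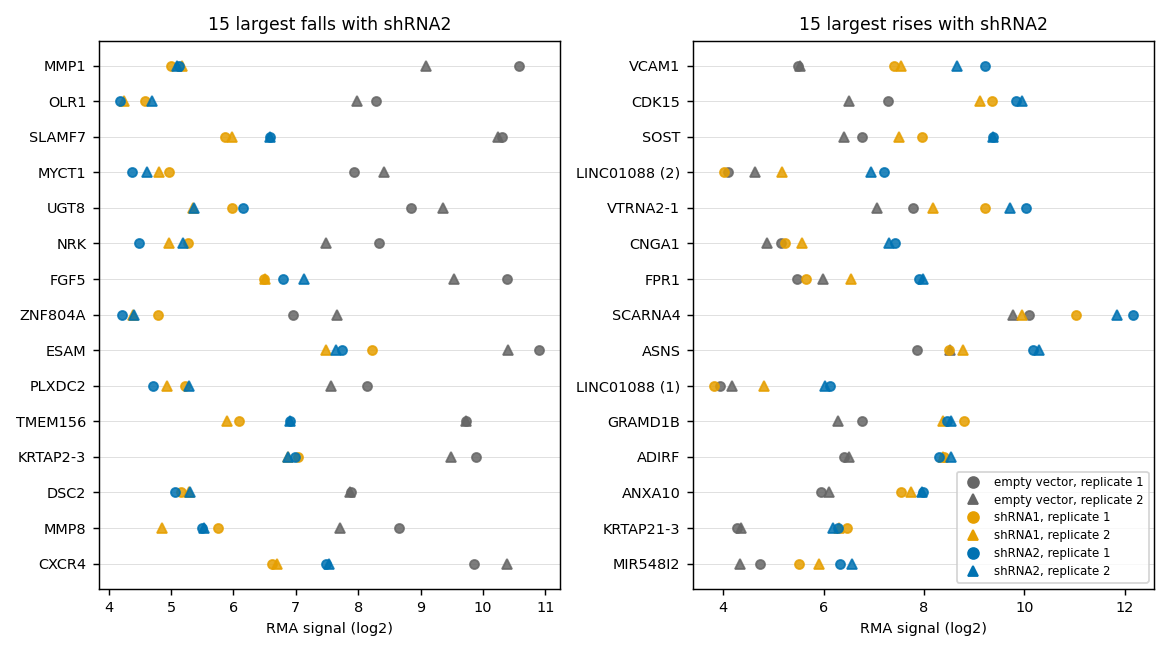
RMA signal (log2) on each of the 6 arrays for the 15 largest falls (left) and 15 largest rises (right) with shRNA2, circles for replicate 1 and triangles for replicate 2. On the left the shRNA1 arrays lie with shRNA2, and on the right they lie near the vector for CNGA1, FPR1 and ASNS.

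Cadherins, junction and adhesion proteins hold cells to each other and to vessels. Of 58 probe sets for them, 2 were higher (VCAM1 and ICAM1) and 7 lower, or 15.5% called against 2.57% of all, at a median of -0.14 against -0.04. The replicate block called 4 higher and 13 lower, or 29.3% against 7.33% of all. Among the falls it added were PCDH9 (-0.95, adjusted p = 0.0217), PKP2 (-0.79, adjusted p = 0.0211) and DSG2 (-0.72, adjusted p = 0.0374). PCDH7, a protocadherin, fell from 7.80 and 7.96 to 5.45 and 5.13 (-2.59, adjusted p = 0.00448 in limma), CLDN1, a tight junction protein, from 8.65 and 8.08 to 5.86 and 5.97 (-2.45), and DSP, the desmosomal plaque protein, from 10.47 and 10.73 to 9.77 and 9.76 (-0.83). ICAM1, a ligand of leukocyte integrins, rose from 8.39 and 8.94 to 10.16 and 9.78 (1.31, adjusted p = 0.0455) and was not called with shRNA1. Of 41 guidance probe sets 0 were higher and 3 lower, all shared: NTN4, a netrin of basement membranes, from 9.63 and 9.55 to 7.22 and 6.92 (-2.52), PLXDC2 (-2.85) and ADGRL2 (-1.67). These 3 calls were 7.32% of the list against 2.57% of all. The replicate block gave 1 higher, NRP1, and 4 lower, or 12.2% against 7.33% of all.

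Of 40 probe sets for matrix proteases and their inhibitors, 5 were higher and 2 lower (6 and 4 under the replicate block), with a median change of 0.02. That was 17.5% called against 2.57% of all, or 25% against 7.33% under the block. The higher ones were CPA4, a carboxypeptidase (1.59), HTRA1, a secreted serine protease, from 8.80 and 9.54 to 10.72 and 10.70 (1.53, adjusted p = 0.0476 in limma), MMP16 (1.36), ADAM28 (0.98) and DPP4 (0.89). The 2 lower ones, both shared with shRNA1, were MMP8 (-2.67) and MMP1. MMP1 had the largest change of all calls, from 10.58 and 9.09 to 5.13 and 5.10 (-4.72, adjusted p = 0.00457 in limma). The replicate block set ADAM28 apart (adjusted p against shRNA1 of 0.0552) and called HTRA1 with shRNA1 too (adjusted p = 0.0268). TFPI2, a secreted inhibitor of serine proteases, rose from 8.99 and 9.46 to 10.89 and 10.79 (1.62, adjusted p = 0.00972), with shRNA1 between at 10.16 and 10.35, where it was called only under the block (adjusted p = 0.0179). Among matrix genes, HAS2, which makes hyaluronan, fell from 10.10 and 9.68 to 7.41 and 8.09 (-2.14). Of 25 matrix probe sets 1 was higher and 2 lower (12% called against 2.57% of all), or 3 and 3 under the replicate block (24% against 7.33%). C3, the central complement protein, rose from 6.45 and 6.23 to 8.19 and 7.99 (1.75), as it did with shRNA1.

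Lipid synthesis genes had calls in 1 direction only. Of 22 probe sets for cholesterol synthesis and uptake, 0 were higher and 4 lower (18.2% called against 2.57% of all). The median was -0.59 against -0.04 for all probe sets, and the 4 were shared with shRNA1. HMGCS1, an early enzyme of the pathway, fell from 9.84 and 10.09 to 8.11 and 8.22 (-1.80, adjusted p = 0.00756 in limma), DHCR7 from 11.31 and 11.11 to a mean of 9.95 (-1.27), SQLE from 9.66 and 9.54 to 8.49 and 8.56 (-1.08) and SREBF2, the regulator of the pathway, from 9.83 and 9.67 to 8.99 and 8.69 (-0.91). The medians were -0.59 with shRNA2 and -1.21 with shRNA1, a difference that was not tested for the list.

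Of 31 probe sets for fatty acid synthesis and desaturation, 0 were higher and 6 lower (19.4% called against 2.57% of all), at a median of -0.21. FASN, the fatty acid synthase, fell from 10.35 and 10.75 to 9.65 and 9.40 (-1.03, adjusted p = 0.0425 in limma). ACLY, which makes cytosolic acetyl-CoA, fell from 12.43 and 12.35 to 11.44 and 11.42 (-0.96, adjusted p = 0.0282), with shRNA1 at 12.24 and 12.01, and FADS1, a desaturase, from 9.67 and 9.74 to 8.87 and 8.80 (-0.87). These 3 were called with shRNA2 and not with shRNA1, without passing 0.10 between the hairpins. Under the replicate block FASN and FADS1 were called with shRNA1 too (adjusted p of 0.0275 and 0.0438) and ACLY was set apart (adjusted p against shRNA1 of 0.0579). ACSS3 (-2.14), FADS2 (-1.05) and LPIN1 (-0.94) were shared. LPL, the lipoprotein lipase that takes up fatty acids from outside, rose from 5.37 and 5.39 to 6.62 and 6.86 (1.36, adjusted p = 0.00785), and was called with shRNA1 only under the block (adjusted p = 0.0334).

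Cell cycle genes were read by phase. In 46 probe sets of G2 and M phase 2 were higher and 0 lower (4.35% called against 2.57% of all), TTK, a spindle checkpoint kinase (0.79), and PBK, a mitotic kinase (1.00). The median of the list was 0.32, and it was 0.37 with shRNA1, where TTK and PBK were at 0.55 and 0.63 without a call in limma. The replicate block called 7 of the 46 (15.2% against 7.33% of all), all higher, adding CDK1 (0.67), HMMR (0.88), KIF4A (0.59), MAD2L1 (1.01) and NDC80 (0.68). In 35 of DNA replication 1 was higher (2.86%), MCM7 (0.75), which lies in the chromosome 7 stretch described below, and the block gave 2 higher and 1 lower (8.57%). The median of the replication list was 0.23 with shRNA2 and 0.25 with shRNA1. Of 22 probe sets for CDK inhibitors, G1 regulators and p53 targets, 0 were called in limma and 7 had an unadjusted p under 0.05. The replicate block called 18.2% of this list against 7.33% of all. It called RRM2B higher (0.78, adjusted p = 0.0309) and BAX, TIGAR and TP53I3 lower (-0.83, -0.64 and -0.86, with adjusted p of 0.0436, 0.0449 and 0.026). Genes of DNA repair outside these lists, chosen after their values were seen, included RAD50, from 10.10 and 10.13 to 11.12 and 11.07 (0.98, adjusted p = 0.0197), and HLTF, from 9.94 and 9.91 to 10.90 and 10.89 (0.97, adjusted p = 0.02). DNMT3B, a DNA methyltransferase, fell from 7.74 and 7.98 to 6.58 and 6.93 (-1.11, adjusted p = 0.0326). None of these 3 was called with shRNA1, although the block called DNMT3B there (adjusted p = 0.0457).

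Of 48 probe sets for immediate early genes and ERK feedback, 0 were higher and 3 lower (6.25% called against 2.57% of all). The replicate block added DUSP6 (-0.70) and SPRY2 (-0.68) as lower (10.4% called against 7.33% of all). The median change of the list was -0.32, but it was -0.05 from vector replicate 1 and -0.48 from replicate 2, so it rested mostly on 1 vector array. DUSP1, a phosphatase of MAP kinases, fell from 10.11 and 10.66 to 8.03 and 8.03 (-2.35, adjusted p = 0.00548 in limma), and DUSP5, a phosphatase of ERK, from 9.79 and 9.85 to 8.71 and 8.86 (-1.04), where shRNA1 was lower at 7.58 and 7.53. Cell type markers were read to check the line. Mesenchymal and basal markers had 0 calls in 19 probe sets in limma with 3 at an unadjusted p under 0.05, and a mean signal of 9.26 and 9.29 in vector cells and 9.21 and 9.22 with shRNA2. The replicate block called 1, S100A4 (0.75, adjusted p = 0.0289). Luminal epithelial markers had a mean of 7.01 and 7.16 against 6.93 and 6.89. Of their 29 probe sets 3 were lower (SPDEF, AGR2 and CD24), all shared with shRNA1, and 1 higher (PRLR). That was 13.8% called against 2.57% of all, at a median of -0.10. Under the block CLDN7 (-0.77) and ESRP2 (-0.68) were lower too (20.7% against 7.33%). Of 19 endothelial probe sets 3 were lower (MYCT1, ESAM and KDR), or 15.8% called against 2.57% of all, while VWF, TIE1 and CD34 lay between 5.33 and 6.53 on every array.

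Changes of 1 sign were frequent along parts of some chromosomes, a pattern that was noticed in these values and is given without a test. It was read over 7589 protein-coding probe sets with a mean of at least 7, of which 1.42% were called higher and 1.63% lower, or 4.18% and 4.93% under the replicate block. On chromosome 7, 21 of 338 were called higher and 2 lower, and 20 of the 21 lay in a stretch from CROT to CPA4 whose ends were set by these values. The 20 include more than 1 probe set of RASA4 (0.90, 0.98 and 1.05), the gene with near-identical copies. The block gave 43 higher and 8 lower on the chromosome and 35 and 4 in the stretch. In this stretch 83.2% of 119 probe sets for 111 genes were above 0, with a median change of 0.41, or 0.42 against vector replicate 1 and 0.47 against replicate 2. The rest of the chromosome had a median of 0.03. With shRNA1 the median of the stretch was 0.45, and between the hairpins it was -0.01.

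The stretch held genes of unlike roles. Among those called higher were ADAM22, a neuronal adhesion protein (1.76), FBXL13 (1.62), POT1, which protects telomeres (1.33), ARF5, a small GTPase of membrane traffic (1.29), PON2 (1.10), DBF4, the activator of a replication kinase (1.07), AKAP9 (0.86) and CALU (0.81). TFPI2, CPA4, MCM7 and ASNS lay in it too, and of these ASNS had a change of 2.04 against the median of 0.41. PEG10, an imprinted gene, was the one called lower (-0.96). Of the genes named for this stretch, the replicate block set ARF5 apart (adjusted p against shRNA1 of 0.0742) and called MCM7 and POT1 with shRNA1 too (adjusted p of 0.0398 and 0.0185).

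On chromosome 18, 1 of 101 probe sets was higher and 5 lower, 20.8% were above 0 and the median was -0.29, against -0.44 with shRNA1. BCL2, the apoptosis inhibitor, also lies on chromosome 18 and was called lower, but it is not among these 101 probe sets. On the X chromosome 6 of 226 were higher and 1 lower, 73% were above 0 and the median was 0.20, the same as with shRNA1. Under the replicate block 3 were higher and 22 lower on chromosome 18, and 25 higher and 8 lower on the X. Copy number was not measured here, and whether the lines differ in it was not tested.

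**Figure D5:**
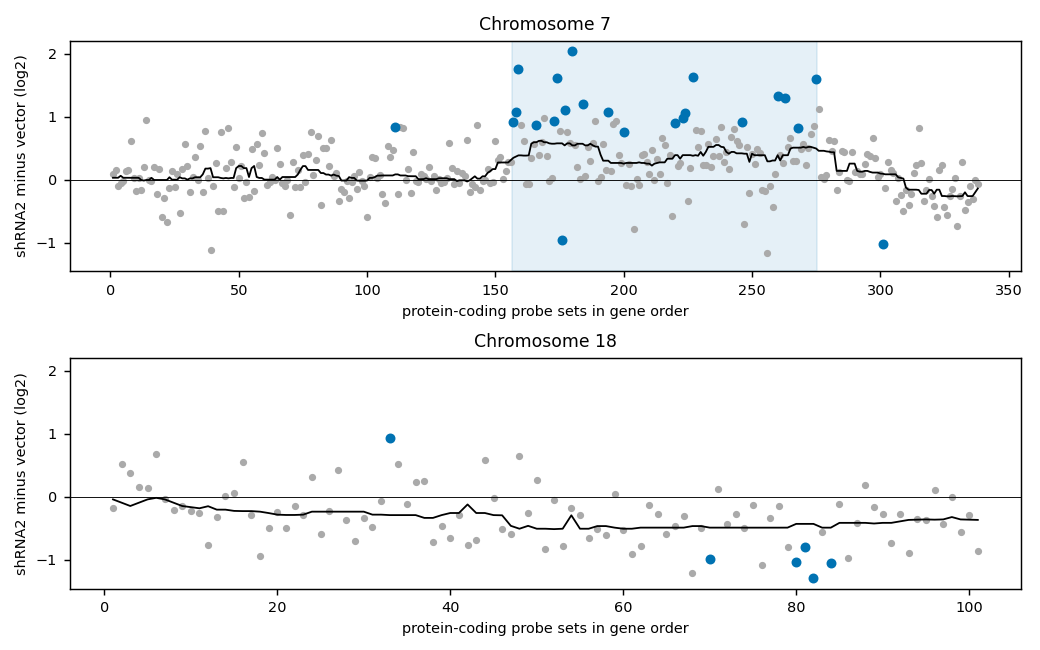
Log2 change with shRNA2 against vector for protein-coding probe sets of chromosome 7 (above) and chromosome 18 (below) in gene order, called ones in blue, with a running median over 21 probe sets as a line and the stretch from CROT to CPA4 shaded. The line lies above 0 across the shaded stretch (median 0.41) and below 0 along most of chromosome 18 (median -0.29).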

How the data were processed

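The authors hybridised labelled RNA to Affymetrix Human Gene 2.0 ST arrays and normalised the scans by RMA in Affymetrix Expression Console (version not given in the sources used here), and the deposited values are RMA signals on the log2 scale, used as they stand. RMA corrects background, quantile-normalises the arrays and summarises probes. Probe sets were named from the platform annotation and updated through RefSeq tables, and the 16098 with exactly 1 gene symbol were tested. Columns of the authors' own comparisons were not used, and 0 per-sample columns were left out.

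All 6 arrays entered 1 limma fit (limma 3.58.1, R 4.3.3) leaving 3 residual degrees of freedom. The Benjamini-Hochberg adjustment ran over all 16098 probe sets. A call is an adjusted p under 0.05. Groups share replicate numbers, which the labels tie to no experiment. Over probe sets, the replicate difference of vector correlated with that of shRNA1 at 0.626 and with that of shRNA2 at 0.145, and those of the hairpins at 0.15, so each pair lay over 0.1. The fit without the number stayed the main one, and the fit with it as a block, with 2 residual degrees of freedom, is given beside each result whose call it changed. The fit and summaries were tested on simulated data. Tables were made with Python 3.11.15, pandas 2.3.3 and NumPy 2.4.6.

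Named genes were the 15 highest and 15 lowest called changes, at most 20 set apart from shRNA1 with the smallest p, and up to 5 called members of each list or else the 2 with the highest mean. Other names were chosen after their values were seen. The members, lists and tests were chosen with earlier results of these data known. Alternatives were a pairwise fit, an intensity trend, the methods' t-test, median centring, quantile normalisation, a filter on dim probe sets, the unnamed probe sets added, a single probe set for each gene, the replicate number as a block, and leaving out each array.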

Additional observations from a re-analysis of the deposited data

Results flagged for a closer look

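MIR539 had an effect that differed between the hairpins by the test of the difference itself. Its shRNA2 minus shRNA1 difference was -2.41 (adjusted p = 0.0324 in limma).

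Among the 37519 probe sets without a single gene symbol, which no comparison above used, 265 were called with shRNA2 against vector when all probe sets were fitted together in limma, 136 higher and 129 lower, or 0.706%. Their log2 changes ran from -6.17 to 6.67, and no gene is named for them here.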

How the results depend on the processing

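All 414 calls kept their direction under every alternative run, and 0 of the values of named genes reversed. Of 2003 values for 126 named probe sets under the alternatives, 1399 stayed on their side of the threshold, 601 no longer passed and 3 newly passed. Leaving out 1 array gave between 1 and 159 higher calls, between 5 and 233 lower calls, between 116 and 349 at an unadjusted p under 0.001, between 0 and 23 set apart and between 6 and 104 shared. The lowest counts came without an shRNA2 array.

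The methods' t-test after adjustment gave 0 higher and 2 lower calls, and 65 at an unadjusted p under 0.001. With all probe sets in the fit, 681 had an unadjusted p under 0.001, and 142 of the named probe sets were called. Under a replicate block, 507 were higher and 673 lower, 638 had an unadjusted p under 0.001, 331 were set apart and 336 shared, and all 414 calls stayed. Beside the calls given with it in the report, the block changed no other call with shRNA2 of a gene named there. Without replicate 1 of vector and of shRNA1, a setting chosen after seeing the data with 1 residual degree of freedom, 545 were higher and 658 lower and 298 were set apart. Centring the arrays on their medians gave 208 higher and 240 lower calls, and quantile normalisation 202 and 217. The set apart count could not be had from the pairwise fit or the t-test, which hold no shRNA1 arrays. With 2 arrays a group, no change under a size of 0.72 was called.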
